A study of Mus musculus with 9 samples.

Results

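Peaks of the histone deacetylases Hdac1 and Hdac2 were examined at 34 genes of the endothelial junction and cell surface, in haemogenic endothelium made in culture from mouse embryonic stem cells. The genes form a named list of junction, adhesion, coagulation and vessel-tone genes, and all 34 were found among the 21887 protein-coding genes of an mm10 (GRCm38) annotation on chromosomes 1 to 19, X and Y. A gene was called bound in a list when a peak overlapped a window of 1000 bp either side of one of its annotated ends by at least 1 bp, and peaks elsewhere inside the gene were recorded separately. By this rule 16 of the 34 genes were bound in at least 1 of 6 lists, 7 had peaks only inside the gene, and 11 had no peak at an end or inside. No end peak in any list was thus found at 18 members (52.9%), against 52.2% of all protein-coding genes, and no peak at all at 11 (32.4%), against 43.0%.

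Chromatin immunoprecipitation with sequencing was done in cells of 3 lines of the C57BL/6 strain, named Hd1_loxlox, Hd2lox and Bry, with no treatment. Hd1_loxlox and Hd2lox were used at passage 25 to 30 and Bry at passage 16 to 19, so passage and line cannot be told apart where Bry is set against the other lines. Each line gave 1 Hdac1 library (Diagenode antibody), 1 Hdac2 library (abcam antibody) and 1 input library. The labels give no genotype beyond these line names and do not say that the libraries came from separate cultures, so differences between lists may be technical in part. The 6 antibody libraries had a list of peak positions each, with no read count or height. The lists held 7490 Hdac1 peaks and 5161 Hdac2 peaks in Hd1_loxlox, 7519 and 9082 in Hd2lox, and 7671 and 9279 in Bry. Read depth is unknown, so a missing peak can reflect shallow sequencing, and the labelled cell type could not be checked by expression. The Hd1_loxlox Hdac2 list stood apart, with an end peak at 2.71% of all protein-coding genes against 13.5% and 34.4% in the other Hdac2 lists, and counts are therefore also given without it.

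Endothelial cells are held together by adherens junctions, built on VE-cadherin, and by tight junctions, built on claudins, occludin and the JAM proteins, which connect through adaptor proteins to actin. Their luminal face carries mucins, leukocyte adhesion receptors and proteins that keep blood fluid and set vessel tone. Haemogenic endothelium loses these junctions as it gives rise to blood cells. Hdac1 and Hdac2 are closely related enzymes that remove acetyl groups from histones as parts of multi-protein complexes and are commonly found at promoters of active genes.

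Promoter sequences are shown for the members at which recurrent peaks fell on, or missed, an annotated start site. Egfl7 and Ece1 have several start sites of which the third carried the recurrent peak, Tjp1 has a listed start site well inside the gene, and Rasip1 was the member bound at an end in the most lists. Robo4 and Emcn are shown as members without a peak, and with 2 CpG each they had the fewest of the member promoters. Each sequence runs 5′ to 3′ on the strand of the gene from 250 bases before to 50 bases after the start site, from RefSeq (GRCm38.p6), and capitals mark CpG dinucleotides.
Egfl7, the first start site, chr2:26580833-26581132, plus strand: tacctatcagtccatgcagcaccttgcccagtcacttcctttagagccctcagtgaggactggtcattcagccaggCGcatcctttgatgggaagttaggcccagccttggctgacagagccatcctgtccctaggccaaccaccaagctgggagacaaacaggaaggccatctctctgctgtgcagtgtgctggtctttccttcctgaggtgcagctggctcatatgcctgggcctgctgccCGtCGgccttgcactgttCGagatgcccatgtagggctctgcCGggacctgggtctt
Egfl7, the second start site, chr2:26583615-26583914, plus strand: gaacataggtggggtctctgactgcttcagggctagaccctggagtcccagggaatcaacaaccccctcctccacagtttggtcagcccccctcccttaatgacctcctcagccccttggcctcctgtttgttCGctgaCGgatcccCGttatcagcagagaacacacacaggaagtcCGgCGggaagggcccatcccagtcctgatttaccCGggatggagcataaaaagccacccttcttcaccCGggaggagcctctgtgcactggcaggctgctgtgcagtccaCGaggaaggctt
Egfl7, the third start site, chr2:26586386-26586685, plus strand: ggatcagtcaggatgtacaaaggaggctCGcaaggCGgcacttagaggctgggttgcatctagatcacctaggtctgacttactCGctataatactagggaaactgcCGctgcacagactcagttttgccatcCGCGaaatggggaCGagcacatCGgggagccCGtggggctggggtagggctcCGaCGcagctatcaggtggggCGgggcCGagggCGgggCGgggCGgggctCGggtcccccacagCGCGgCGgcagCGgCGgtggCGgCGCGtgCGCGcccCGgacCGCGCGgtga
Ece1, the first start site, chr4:137861987-137862286, plus strand: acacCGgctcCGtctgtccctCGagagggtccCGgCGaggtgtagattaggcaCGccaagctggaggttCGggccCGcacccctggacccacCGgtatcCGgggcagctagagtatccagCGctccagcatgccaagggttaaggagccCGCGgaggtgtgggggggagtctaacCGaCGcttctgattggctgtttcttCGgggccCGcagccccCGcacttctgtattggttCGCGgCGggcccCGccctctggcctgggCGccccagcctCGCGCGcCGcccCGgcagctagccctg
Ece1, the third start site, chr4:137913308-137913607, plus strand: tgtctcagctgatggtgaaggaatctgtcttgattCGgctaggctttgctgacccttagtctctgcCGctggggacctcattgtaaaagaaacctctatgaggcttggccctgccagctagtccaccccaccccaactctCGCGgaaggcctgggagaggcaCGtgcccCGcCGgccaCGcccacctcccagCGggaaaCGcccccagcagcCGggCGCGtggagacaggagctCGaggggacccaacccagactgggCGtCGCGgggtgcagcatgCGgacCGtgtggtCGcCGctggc
Tjp1, start site inside the gene, chr7:65371195-65371494, minus strand: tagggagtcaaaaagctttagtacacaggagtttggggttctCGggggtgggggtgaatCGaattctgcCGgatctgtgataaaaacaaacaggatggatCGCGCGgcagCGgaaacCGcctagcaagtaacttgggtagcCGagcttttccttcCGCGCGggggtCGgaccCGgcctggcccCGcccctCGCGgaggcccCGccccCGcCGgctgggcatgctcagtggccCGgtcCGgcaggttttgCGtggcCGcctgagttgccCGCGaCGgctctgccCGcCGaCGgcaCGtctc
Rasip1, start site, chr7:45627287-45627586, plus strand: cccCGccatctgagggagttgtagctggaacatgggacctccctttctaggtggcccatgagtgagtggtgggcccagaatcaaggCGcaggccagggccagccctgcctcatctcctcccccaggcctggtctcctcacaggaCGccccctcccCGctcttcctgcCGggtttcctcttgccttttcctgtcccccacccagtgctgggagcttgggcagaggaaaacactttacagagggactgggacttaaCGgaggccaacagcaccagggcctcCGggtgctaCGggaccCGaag
Robo4, start site, chr9:37401722-37402021, plus strand: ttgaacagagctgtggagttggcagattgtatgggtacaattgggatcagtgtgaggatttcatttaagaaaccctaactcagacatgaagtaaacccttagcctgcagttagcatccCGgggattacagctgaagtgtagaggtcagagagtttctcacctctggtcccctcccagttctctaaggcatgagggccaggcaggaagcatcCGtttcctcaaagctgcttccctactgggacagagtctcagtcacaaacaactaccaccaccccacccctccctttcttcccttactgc
Emcn, start site, chr3:137340828-137341127, plus strand: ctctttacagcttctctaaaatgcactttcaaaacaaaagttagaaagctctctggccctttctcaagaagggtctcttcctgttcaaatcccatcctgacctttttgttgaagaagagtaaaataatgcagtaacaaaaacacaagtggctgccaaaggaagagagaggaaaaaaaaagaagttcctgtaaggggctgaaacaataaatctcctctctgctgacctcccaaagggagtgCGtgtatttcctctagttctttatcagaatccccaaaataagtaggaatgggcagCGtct
Peaks of 5 lists overlapped the third Egfl7 promoter, with 31 CpG dinucleotides, against none at the first, with 5. At Ece1 the first promoter had more CpG (28) and no peak, and the third had 21 CpG and peaks of 5 lists.

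The share of members with an end peak was below that of all protein-coding genes in 5 of the 6 lists. For Hdac1, 8 members (23.5%) were bound in Hd1_loxlox, against 31.7% of all genes. The Hd2lox Hdac1 list held 4 members (11.8%), against 24.3% of all genes. The Bry Hdac1 list held 6 members (17.6%), against 31.9% of all genes. For Hdac2 the share of members lay near the background in Hd1_loxlox, with 1 member (2.94%) against 2.71%, and in Hd2lox, with 4 members (11.8%) against 13.5%. In Bry the Hdac2 list held 9 members (26.5%), against 34.4% of all genes. These shares are descriptions, since the members were chosen as a list and share their libraries.

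**Figure D1:**
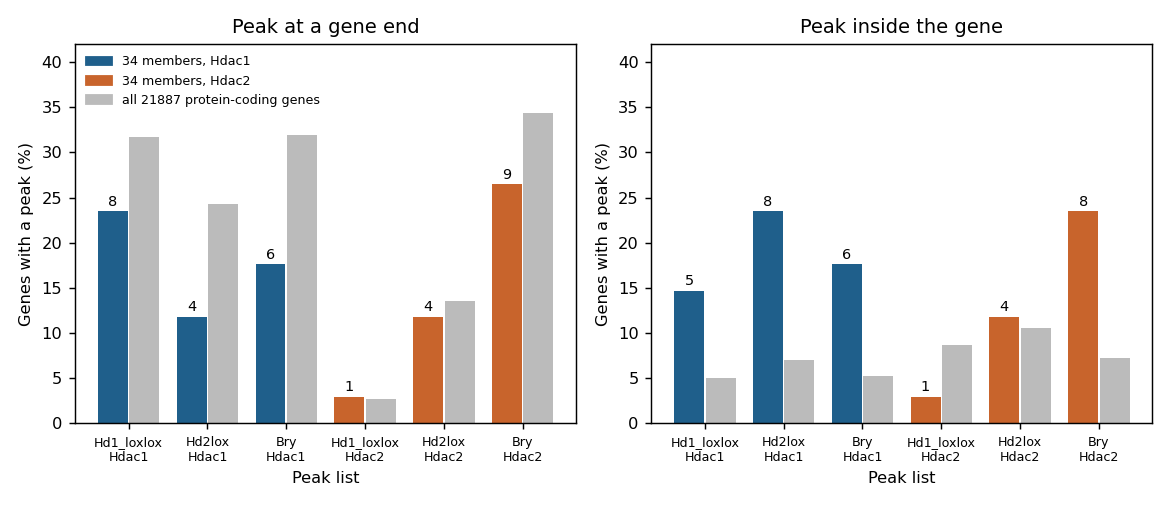
Share of the 34 members (coloured bars, with the number of members above) and of all 21887 protein-coding genes (grey bars) that had a peak at a gene end (left) or inside the gene (right), in each of the 6 lists. The members lie below all genes for end peaks in 5 lists and above them for peaks inside the gene in 5 lists. The Hd1_loxlox Hdac2 list, with 1 member in each panel, is the exception in both, and the Hd2lox Hdac2 list lies near all genes in both.

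Few members were bound in several lines. In at least 2 of 3 lines Hdac1 had an end peak at 4 members (11.8%), against 30.2% of all genes, and Hdac2 at 3 members (8.82%), against 10.6%. Rasip1 met this for both antibodies, 2.94% of members against 9.32% of all genes, and was the member bound in at least 5 of 6 lists (2.94%, against 7.15%). The Rasip1 calls depended on the rule, with an end peak in 1 list for windows of 500 bp and in 0 for peak centres. The Hdac1 genes were Rasip1, Plvap, Nos3 and Ramp2, and the Hdac2 genes were Rasip1, Tjp1 and Thbd. Among members, Rasip1 alone was bound by Hdac1 in all 3 lines (2.94% of members against 14.6% of all genes), and no member was bound by Hdac2 in all 3 lines (0.603% of all genes). With the Hd1_loxlox Hdac2 list left out, the same 3 members were bound in both remaining Hdac2 lists. With a line left out and both others required, Hdac1 was at 1 member without Hd1_loxlox, 3 without Hd2lox and 2 without Bry, and Hdac2 at 3, 0 and 0. The share of all genes is not given for these counts, but shares of a list are. For Hdac1 the shared members were 16.7% of the Bry members without Hd1_loxlox, against 52.1% over all genes. They were 50.0% of the Bry members without Hd2lox (against 79.6%) and 50.0% of the Hd2lox members without Bry (71.0%). For Hdac2 they were 33.3% of the Bry members without Hd1_loxlox (27.9%). They were 0% of the Bry members without Hd2lox (4.18%) and 0% of the Hd2lox members without Bry (5.43%).

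**Figure D2:**
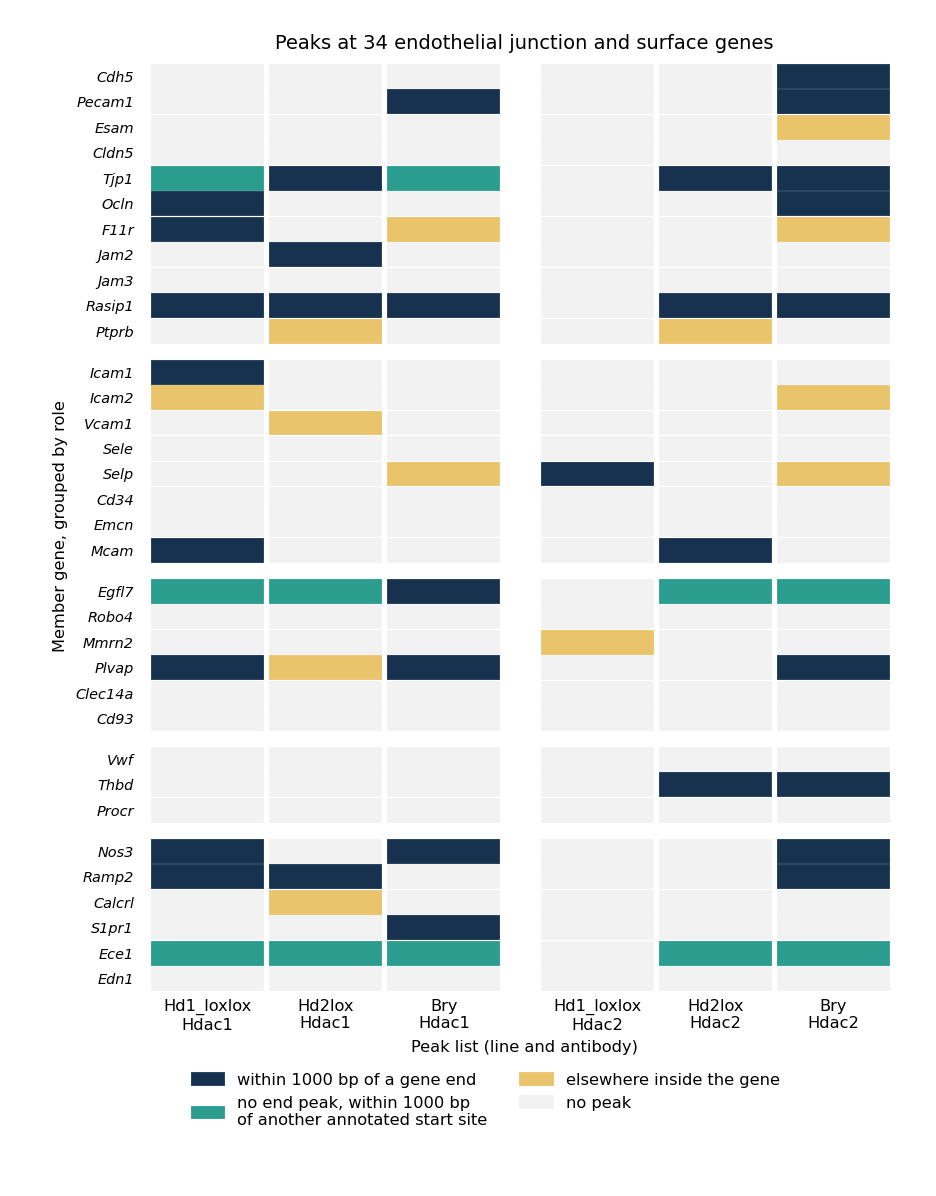
Place of the peak at each of the 34 members (rows, grouped by role) in each of the 6 lists (columns, Hdac1 on the left and Hdac2 on the right). Dark blue marks a peak within 1000 bp of a gene end, green a peak with no end peak but within 1000 bp of another listed start site, yellow a peak elsewhere inside the gene and pale grey no peak, and 11 rows are pale grey throughout.

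Of 11 genes for junction proteins and their regulators, 7 (63.6%) had an end peak in at least 1 list, against 47.8% of all genes. For Hdac1 this was 6 (54.5%, against 43.2% of all genes) and for Hdac2 5 (45.5%, against 39.4%). In at least 2 of 3 lines, however, Rasip1 alone of these 11 was bound by Hdac1, against 30.2% of all genes. By that rule Hdac2 was at Rasip1 and Tjp1, 2 of these 11, a share above the 10.6% of all genes. Cdh5, F11r and Jam2 had an end peak in 1 list each, and Pecam1 in Bry alone. Rasip1 encodes a Rap1-binding protein needed for vessel lumens and endothelial junctions, and lies on chromosome 7 at 45627537-45639092. The Hdac1 peaks covered 45627418-45629829 in Hd1_loxlox, 45628081-45629449 in Hd2lox and 45628211-45629522 in Bry. The Hdac2 peaks covered 45628165-45629321 in Hd2lox and 45628244-45629532 in Bry, and the Hd1_loxlox Hdac2 list had none here. The Hd1_loxlox Hdac1 peak, 2412 bp wide, reached over the start site, and the other 4 peaks began between 544 and 707 bp inside the gene. The 3 Hdac1 peaks and the Hd2lox Hdac2 peak also came within 1000 bp of an end of the neighbouring gene Izumo1. Hd2lox had a further peak inside Rasip1 for each antibody, at 45631764-45633071 for Hdac1 and 45632100-45633122 for Hdac2.

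Cdh5, which encodes VE-cadherin, the adhesion molecule of endothelial adherens junctions, had 1 end peak, for Hdac2 in Bry (chromosome 8, 104101218-104102002). At 785 bp this was among the narrowest peaks of its list, at the 0.431 percentile of width. Pecam1, encoding CD31, a homophilic adhesion molecule of cell contacts, was bound in Bry by both antibodies, with an Hdac1 peak of 1936 bp and an Hdac2 peak of 1263 bp over the upper end of the gene. Ocln, encoding the tight junction protein occludin, was bound over its start sites by Hdac1 in Hd1_loxlox and by Hdac2 in Bry. F11r, encoding JAM-A, had an Hdac1 peak over its start site in Hd1_loxlox and peaks inside the gene for both antibodies in Bry. Jam2, a further JAM gene, had an Hdac1 peak in Hd2lox that also lay at an end of Atp5j.

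Tjp1, encoding the tight junction scaffold ZO-1, was bound at the upper end of the gene in 3 lists, by Hdac1 in Hd2lox and by Hdac2 in Hd2lox and Bry. Esam, an adhesion molecule of endothelial tight junctions, had a peak inside the gene for Hdac2 in Bry. Ptprb, the phosphatase VE-PTP that keeps VE-cadherin dephosphorylated, had peaks inside the gene in Hd2lox, 2 for Hdac1 and 1 for Hdac2, and the Hdac2 peak overlapped the wider Hdac1 peak. Cldn5 and Jam3, the genes of claudin-5 and JAM-C, had no peak in any list.

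Among 8 genes for leukocyte adhesion receptors and mucins, 3 (37.5%, against 47.8% of all genes) had an end peak in at least 1 list and 3 had no peak at all. Icam1, the receptor for leukocyte integrins, had an Hdac1 peak of 2281 bp over its start site in Hd1_loxlox. Mcam, encoding the adhesion molecule CD146, was bound by Hdac1 in Hd1_loxlox (chromosome 9, 44134691-44136357) and by Hdac2 in Hd2lox (44134163-44134997), with overlapping peaks. Selp, the P-selectin gene, was the member with an end peak in the Hd1_loxlox Hdac2 list, at 164150629-164151881 on chromosome 1. That peak lay beyond the upper end of Selp (164150026) and was also within 1000 bp of an end of F5, the coagulation factor V gene. In Bry, Selp had a peak inside the gene for both antibodies. Icam2 had peaks inside the gene for Hdac1 in Hd1_loxlox and Hdac2 in Bry, and Vcam1 for Hdac1 in Hd2lox. Sele (E-selectin), Cd34 and Emcn (endomucin) had no peak in any list.

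Of 6 genes for proteins facing the lumen and the matrix, 2 (33.3%, against 47.8% of all genes) had an end peak. Plvap, which forms the diaphragms of endothelial fenestrae and caveolae, was bound at its upper end by Hdac1 in Hd1_loxlox (chromosome 8, 71510931-71512573) and Bry (71511097-71512572) and by Hdac2 in Bry (71511388-71512742). A further peak inside Plvap was present in 4 lists, all 3 of Hdac1 and Hdac2 of Bry. Egfl7, a secreted endothelial protein, had an end peak for Hdac1 in Bry, at an end shared with Agpat2. Mmrn2, a matrix protein that binds Cd93 and Clec14a, had 1 peak, inside the gene in the Hd1_loxlox Hdac2 list. Robo4, Clec14a and Cd93 had none.

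Of 3 genes that control coagulation, 1 (33.3%, against 47.8% of all genes) had an end peak. Thbd, encoding thrombomodulin, had end peaks in 2 Hdac2 lists and in no Hdac1 list. Its Hdac2 peaks lay at opposite ends of the gene, at 148403330-148404227 on chromosome 2 in Hd2lox and at 148407259-148408334 in Bry, and did not overlap. Vwf, encoding von Willebrand factor, and Procr, the endothelial protein C receptor gene, had no peak in any list.

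Among 6 genes for vessel tone and lumen signalling, 3 (50.0%, against 47.8% of all genes) had an end peak. Nos3, the endothelial nitric oxide synthase gene, carried narrow peaks at nearly the same position for Hdac1 in Hd1_loxlox (chromosome 5, 24365232-24366255) and Bry (24365240-24366327) and for Hdac2 in Bry (24365269-24366345). Ramp2, a partner of the adrenomedullin receptor, was bound by Hdac1 in Hd1_loxlox and Hd2lox and by Hdac2 in Bry. The gene is 1917 bp long, and both of its ends had a peak in Hd1_loxlox for Hdac1 and in Bry for Hdac2. S1pr1, the sphingosine-1-phosphate receptor gene, had an Hdac1 peak in Bry. Calcrl, which pairs with Ramp2 in the adrenomedullin receptor, had a wide Hdac1 peak of 2582 bp inside the gene in Hd2lox. Ece1, the endothelin-converting enzyme gene, had peaks inside the gene in 5 lists, and Edn1, the gene of endothelin-1, had none.

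The share of members with a peak inside the gene was above that of all genes in 5 lists, though near it in Hd2lox Hdac2, at 1.15 points above. For Hdac1 they were found at 5 members (14.7%) in Hd1_loxlox against 5.01% of all genes, at 8 (23.5%) in Hd2lox against 7.03%, and at 6 (17.6%) in Bry against 5.25%. For Hdac2 they were found at 1 member (2.94%) in Hd1_loxlox against 8.66% of all genes, at 4 (11.8%) in Hd2lox against 10.6%, and at 8 (23.5%) in Bry against 7.21%. The median gene length was 19266 bp for members and 17169 bp for all genes, and the counts were also taken by gene length, whose part in the shares was not otherwise tested. Among genes of 10 to 100 kb, Hdac1 peaks lay inside 3 of 21 members in Hd1_loxlox (14.3%, against 6.04% of all genes of that length), 5 in Hd2lox (23.8% against 7.08%) and 4 in Bry (19.0% against 6.28%). In the same length range Hdac2 peaks lay inside 1 member in Hd1_loxlox (4.76% against 9.15%), 2 in Hd2lox (9.52% against 10.4%) and 6 in Bry (28.6% against 8.24%). Of the 4 members of 100 kb and over, Hdac1 peaks lay inside 2 in Hd1_loxlox (50.0% against 13.1%), 3 in Hd2lox (75% against 26.6%) and 2 in Bry (50.0% against 15.1%). Hdac2 peaks lay inside 0 of these in Hd1_loxlox (against 31.9%), 2 in Hd2lox (50.0% against 42.6%) and 2 in Bry (50.0% against 21.4%). The 9 members under 10 kb had 0 peaks inside in every list. Over all genes of that length the Hdac1 shares were 1.02%, 0.946% and 0.744% and the Hdac2 shares 0.833%, 1.12% and 1.34% in Hd1_loxlox, Hd2lox and Bry. With end and inside peaks counted jointly, the 3 Hdac1 lists held 12, 10 and 10 members in Hd1_loxlox, Hd2lox and Bry (35.3%, 29.4% and 29.4%), against 35.2%, 29.3% and 35.4% of all genes. The Hdac2 lists held 2, 7 and 15 (5.88%, 20.6% and 44.1%), against 11%, 21.8% and 38.9%.

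Several of these inside peaks sat on start sites that lie within the outer ends of the gene. RefSeq promoters were listed for 18 of the 34 members, with 24 start sites. The third start site of Ece1 (chromosome 4, position 137913558) was covered by Hdac1 peaks at 137912922-137914102 in Hd1_loxlox, 137913107-137914294 in Hd2lox and 137913035-137914333 in Bry. Hdac2 peaks covered it at 137913167-137914049 in Hd2lox and 137913111-137914069 in Bry. The third start site of Egfl7 (chromosome 2, position 26586636) was covered by Hdac1 peaks at 26585141-26587879 in Hd1_loxlox, 26585685-26587335 in Hd2lox and 26586072-26587231 in Bry. The Hdac2 peaks there lay at 26586188-26587084 in Hd2lox and 26586032-26587553 in Bry. In Bry each antibody also had a peak over the second Egfl7 start site. The start site inside Tjp1 (chromosome 7, position 65371244) was covered by Hdac1 in all 3 lines and by Hdac2 in Bry, with widths from 1499 to 1984 bp. Ece1, Egfl7 and Tjp1 thus had peaks of all 3 Hdac1 lists at a listed start site, which the rule on gene ends did not count.

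**Figure D3:**
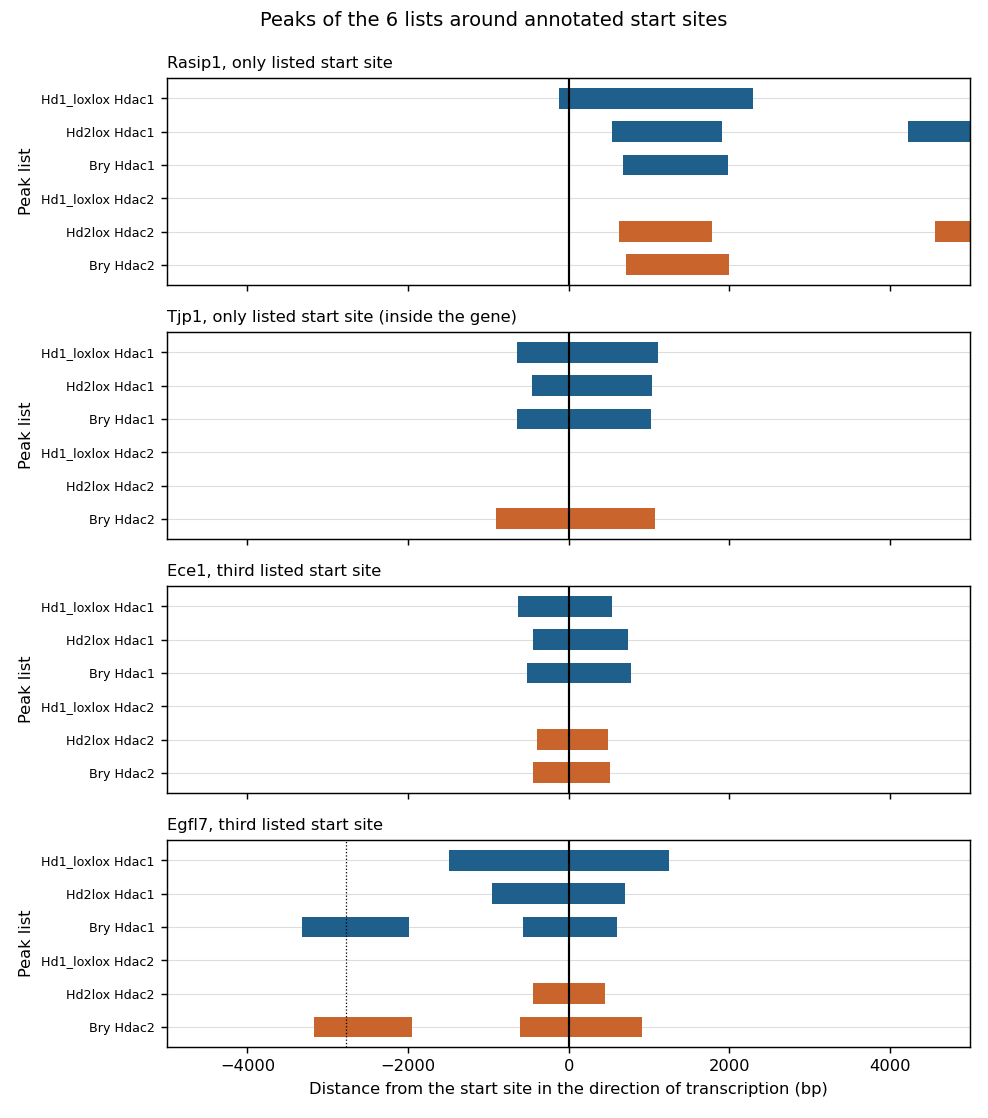
Peaks of the 6 lists (bars, Hdac1 blue and Hdac2 orange) within 5000 bp of a start site of Rasip1, Tjp1, Ece1 and Egfl7, by distance from that start site in the direction of transcription. The solid line is the start site and the dotted line in the lowest panel is the second Egfl7 start site. Peaks of 5 lists cover the third start sites of Ece1 and Egfl7, peaks of 4 lists cover that of Tjp1, and at Rasip1 the peaks of 4 of 5 lists begin beyond the start site.

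Within 1000 bp of a listed start site, Hdac1 peaks were found at 8 of 18 members in Hd1_loxlox (44.4%, against 32.7% of protein-coding genes with a listed promoter), 4 in Hd2lox (22.2% against 24.7%) and 4 in Bry (22.2% against 32.9%). Hdac2 peaks were found there at 0 of 18 members in Hd1_loxlox (against 1.87%), 4 in Hd2lox (22.2% against 13.4%) and 5 in Bry (27.8% against 35.5%). The direction relative to all genes thus differed between lists.

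Hdac1 and Hdac2 were compared over the lines. An end peak was present at 6.0 ± 2.0 members for Hdac1 and 4.67 ± 4.04 for Hdac2 (SD, n = 3 lists each), a difference smaller than the spread between lists. Without the Hd1_loxlox Hdac2 list the Hdac2 counts were 4 and 9. Hdac1 had an end peak in more lists than Hdac2 at 9 members (26.5%, against 32.5% of all genes), in fewer at 4 (11.8% against 5.85%) and in as many at 3 (8.82% against 9.40%). With 3 libraries against 3, the smallest possible p of an exact test is 0.1. Fisher's exact test (two-sided) of presence called 0 of 21887 genes at an adjusted p under 0.05 and 0 at an unadjusted p under 0.05 (percent called 0). An exact permutation test of the bases of the end windows under peaks gave the same counts. The smallest p was reached by 149 genes in Fisher's exact test and by 926 in the permutation test, and by 0 members in either. Among members 0 had an end peak for Hdac1 in every line with Hdac2 in none (0.676% of all genes), and 0 had the opposite pattern (0.00457%). At Rasip1 the bases of the end windows under Hdac1 peaks were 1120 in Hd1_loxlox, 457 in Hd2lox and 327 in Bry, and under Hdac2 peaks 0, 373 and 294. Within the end windows Hdac1 covered more than Hdac2 in each of the 3 lines, by most in Hd1_loxlox, where the Hdac2 list had no peak. Each of these peaks ran past the window edge at 1000 bp. In Hd2lox and Bry the covered bases thus record only where each peak began. The whole peaks were 1369 bp for Hdac1 and 1157 bp for Hdac2 in Hd2lox, and 1312 and 1289 bp in Bry. The Hdac1 mean was 635 ± 425 bp and the Hdac2 mean 222 ± 197 bp (SD, n = 3 lists each), a difference of 412 bp (exact two-sided permutation p = 0.2, adjusted p = 1). Rasip1 is shown as the member bound in the most lists, so it was chosen from the same peak calls. Over whole lists the median Hdac1 peak was also wider, at 1475, 1445 and 1375 bp in Hd1_loxlox, Hd2lox and Bry, against 1099, 822 and 1310 bp for Hdac2.

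Overlap of the lists over the members was partial. In Bry, Hdac1 and Hdac2 shared 4 members (Pecam1, Rasip1, Plvap and Nos3), 66.7% of the Hdac1 members and 44.4% of the Hdac2 members, against 82.4% and 76.4% over all genes. In Hd2lox they shared 2 (Tjp1 and Rasip1), 50.0% of each list, against 51.6% of Hdac1 genes and 93.1% of Hdac2 genes overall. In Hd1_loxlox they shared 0, of 8 members for Hdac1 and 1 for Hdac2, against 4.53% of Hdac1 genes and 52.9% of Hdac2 genes overall. The Hd1_loxlox and Bry Hdac1 lists shared 3 members, 37.5% of the first and 50.0% of the second, against 80.2% and 79.6% over all genes. The Hd1_loxlox Hdac1 list and the Bry Hdac2 list shared 5 members, 62.5% of the first and 55.6% of the second, against 80.3% and 73.9% over all genes. At every shared member the peaks overlapped, except at Thbd between the Hdac2 lists of Hd2lox and Bry.

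Peaks at member ends were of ordinary size. The 34 end peaks of all lists had a median width of 1274 bp and lay at a median of the 49.5 percentile of their list. In Hd1_loxlox the 9 Hdac1 end peaks had a median of 1643 bp (63.3 percentile), and in Bry the 6 Hdac1 end peaks had a median of 1200 bp (31.0 percentile). Of the 34 end peaks, 7 also lay at an end of another protein-coding gene.

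The 11 members without a peak lay at varied distances from the nearest peak. The nearest peak of any list was 7.57 kb from Procr and 10.2 kb from Cd34. It was 21.2 kb from Emcn, 28.3 kb from Cd93, 29.2 kb from Vwf and 32.6 kb from Cldn5. For Edn1, Jam3, Sele, Robo4 and Clec14a it lay between 35.0 and 49.7 kb away.

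The CpG content of the member promoters was set beside that of all promoters. CpG observed over expected, the number of CpG dinucleotides relative to that given by the C and G content of the same 300 bases, had a median of 0.365 over the 13 member promoters that no peak overlapped, against 0.260 over the 11664 such promoters of all protein-coding genes. Of these 13, 8 belonged to members with no peak at all and spanned 0.106 to 0.557, and 5 to members with a peak elsewhere (Ece1 with 2, Egfl7, Selp and Calcrl) and spanned 0.197 to 0.777. The 2 of Ece1, at 0.777 and 0.742, lay above the median of all promoters, 0.567. Over the 11 member promoters with a peak of at least 1 list the median was 0.656. Among all promoters the median was 0.711 with a peak of 1 list and 0.921 with peaks of 5 lists. The highest member promoters were the third of Egfl7, at 0.945, and that of Tjp1, at 0.972, and the lowest those of Robo4, at 0.106, and Emcn, at 0.159. Between these extremes the ranges overlapped. Edn1 (0.557) and Procr (0.528) had no peak, and the second Egfl7 promoter, with peaks of 2 lists, stood at 0.311. Of the 11 with a peak, only the third Egfl7 and the Tjp1 promoter lay above the median of all promoters with peaks of as many lists (0.921 and 0.889). The others lay below the median for their number of lists, Rasip1, at 0.298, and the third Ece1 promoter, at 0.656, among them. The member promoters as a whole had a median of 0.502, against 0.567 for all promoters.

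**Figure D4:**
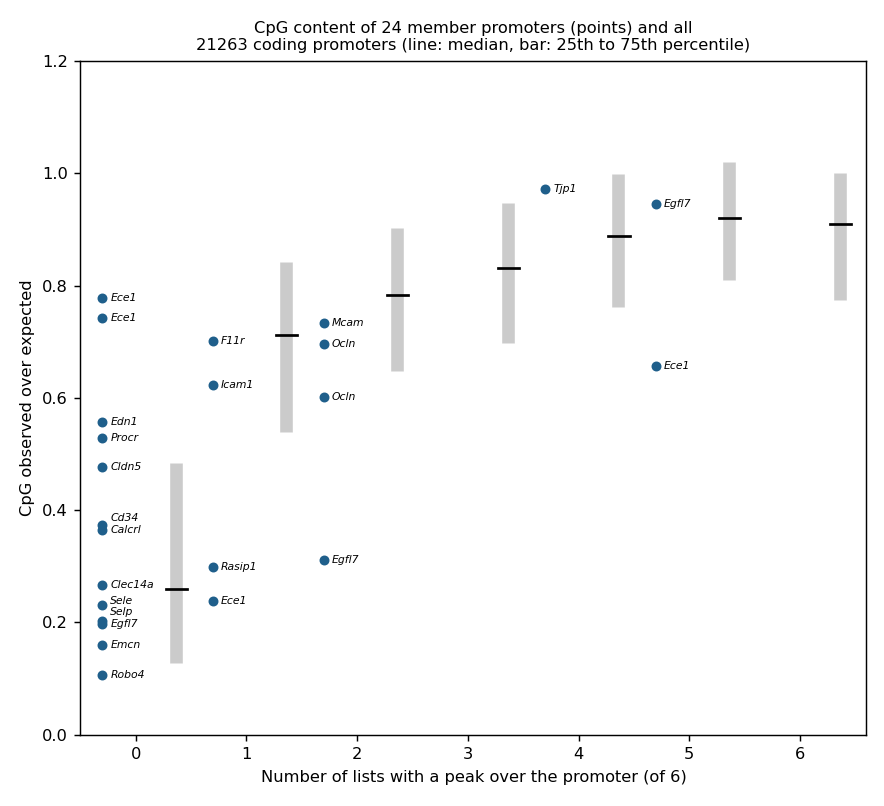
CpG observed over expected of 24 member promoters (points with gene names) and of all 21263 promoters of protein-coding genes (black line, median; grey bar, 25th to 75th percentile), by the number of lists with a peak over the 300 bases. Among all promoters the median is 0.260 with no list and 0.921 with 5 lists, and Robo4 at 0.106 is the lowest of the members.

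Motif letters were counted in the same promoters on both strands, with any overlap allowed. The SP and KLF motif GGGCGG was in 12 of 24 member promoters (50.0%, against 46.2% of all promoters of protein-coding genes), the ETS motif AGGAAG in 9 (37.5% against 34.4%) and the ETS motif CCGGAAG in 0 (0% against 11.6%). The SMAD motif CAGAC was in 12 (50.0% against 48.4%), the AP-1 motif TGANTCA in 4 (16.7% against 6.99%), the RUNX motif TGTGGT in 2 (8.33% against 15.0%) and the GATA motif AGATAA in 1 (4.17% against 9.65%). The NFY motif CCAAT was in 8 (33.3% against 38.2%) and the E-box CANNTG in 17 (70.8% against 69.0%). NF-kappaB was searched as 1 strict string with 1 free letter, found in 0.423% of all promoters and in none of the member promoters. Sites that differ from this string were not counted, so whether member promoters hold other NF-kappaB sites was not tested. The FOX motif TGTTTAC (3.01% of all promoters) was also in none of the member promoters. The third Egfl7 promoter held 4 copies of GGGCGG and the Mcam promoter 5. With 24 promoters, overlapping start sites of Ece1 and Ocln among them, these shares are coarse.

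Partners of the junction proteins, most of them intracellular, had higher shares than the members. Of 26 adherens junction partners, 20 (76.9%) had Hdac1 end peaks in at least 2 lines and 10 (38.5%) had Hdac2 end peaks, against 30.2% and 10.6% of all genes. Ctnna1 (alpha-catenin), Afdn (afadin), Pkp4 (a plakophilin), Krit1 (a Rap1 effector at junctions), the GTPases Rap1a, Cdc42 and Rac1, and Rapgef2, which activates Rap1, were in 5 lists each. Of 19 tight junction partners 12 (63.2%) had Hdac1 and 4 (21.1%) had Hdac2, with the polarity genes Pard3 and Prkcz in all 6 lists and Lsr, a tricellular junction gene, in 5. Of 25 partners in lumen signalling 7 (28.0%) had Hdac1 and 2 had Hdac2, with Spns2, the sphingosine-1-phosphate exporter, and Slit3, a Robo ligand, in 5 lists. Of 26 partners in coagulation and leukocyte adhesion 6 (23.1%) had Hdac1 and 0 had Hdac2.

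Among 12 genes of the VEGF and Tie receptors and their ligands, 8 (66.7%) had Hdac1 end peaks in at least 2 lines and 1 (8.33%) had Hdac2. Of 20 blood cell surface genes 4 (20%) had Hdac1 and 2 (10%) had Hdac2, shares above those of the members, 4 (11.8%) and 3 (8.82%). The shares of all protein-coding genes were 30.2% for Hdac1 and 10.6% for Hdac2. In Hd1_loxlox, Hd2lox and Bry the Hdac1 lists held 8, 4 and 6 of the 34 members and 19, 18 and 17 of the 26 adherens junction partners. The lists of partners were written with earlier results of these data known, and their differences from the members were not tested.

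**Figure D5:**
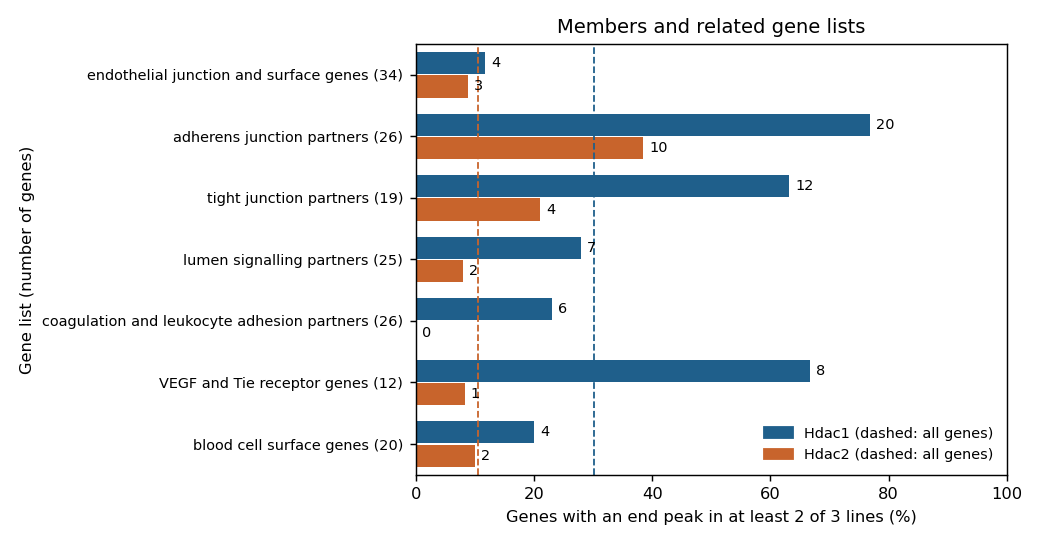
Share of the genes of each list with an end peak in at least 2 of 3 lines, for Hdac1 (blue) and Hdac2 (orange), with the number of genes beside each bar, the size of the list in brackets and the share of all protein-coding genes as dashed lines. The members stand at 11.8% for Hdac1 and 8.82% for Hdac2, below the dashed lines at 30.2% and 10.6%, and the adherens junction partners stand at 76.9% and 38.5%.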

How the data were processed

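The deposited values are peak positions: each of the 6 antibody libraries had 1 list with chromosome, start and end, deposited by the authors per library, with no score or count. Per the submitters' processing notes the tools were bcl2fastq, Bowtie2 2.2.9, SAMtools 1.3.1 and MACS2 2.1.1.20160309 on mm10. How peaks were thresholded and whether input served as control is not given in the sources used here. Input libraries (3) were not used here.

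Starts were made 1-based. Genes and promoters came from RefSeq tables of GRCm38.p6. The gene table gives outer ends and no strand, so windows of 1000 bp at both ends were used. The promoter table, which gives strand, listed 17492 protein-coding genes and 18 members. Presence was compared per gene by Fisher's exact test, and bases of the end windows under peaks by exact permutation, with Benjamini-Hochberg adjustment over 21887 genes (Python 3.11.15, scipy 1.17.1). By their titles, the Hdac1 and the Hdac2 library of a line were made from 1 cell line, which pairs them. A sign-flip test by line was the paired alternative (smallest p 0.25). Other windows, overlaps, peak widths and left-out lines were tried.

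The members, gene lists, motifs and rules for named genes were chosen with earlier results of these data known, so no p is given for the list. All 34 members are named, with positions for those in at least 5 lists, for any with an end peak in the Hd1_loxlox Hdac2 list, and for others where peaks of several lists are compared. Of the partner lists, genes in at least 5 lists are named.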

Additional observations from a re-analysis of the deposited data

Results flagged for a closer look

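The number of members with an end peak differed between the antibodies in opposite directions in 2 of the lines. Hdac1 minus Hdac2 was 7 in Hd1_loxlox, with 8 members for Hdac1 and 1 for Hdac2, and -3 in Bry, with 6 for Hdac1 and 9 for Hdac2. In Hd2lox both had 4. Each value rests on 1 library of each antibody, and the difference between the lines was not tested. The Hd1_loxlox Hdac2 list was short of end peaks over all genes too (2.71%, against 34.4% in the Bry Hdac2 list), and its part in this difference was not tested.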

How the results depend on the processing

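Members were bound at ends below the share of all genes in 5 lists with windows of 1000 bp, 6 with 500 bp, 5 with 2000 bp and 4 with 5000 bp. This held in 4 lists at listed start sites alone, 6 for peak centres, 5 for overlaps of 200 bp and 3 for peaks at least as wide as the list median. Counts over the member list that moved by over 1.5 times were the following. With 5000 bp windows, Hd2lox Hdac1 held 8 members (4 with 1000 bp), 23.5% against 29.1% of all genes. Hd1_loxlox Hdac2 held 3 (1), 8.82% against 7.08%, and Bry Hdac2 14 (9), 41.2% against 39.8%. Recurrent members with 5000 bp windows were 7 for Hdac1 (4) and 5 for Hdac2 (3). Hd1_loxlox Hdac2 held 2 with 2000 bp (5.88% against 3.94%). It held 0 with 500 bp (2.01% of all genes), at start sites alone (1.87%) and for peak centres (1.97%). At start sites alone, where 18 members could be counted, Bry Hdac2 held 5 (27.8% against 35.5%). With wide peaks alone, end counts were 1 in Hd2lox Hdac1 (2.94% against 12.8%), 2 in Bry Hdac1 (5.88% against 17.8%) and 3 in Bry Hdac2 (8.82% against 19.8%). Recurrent members with wide peaks were 1 for Hdac1 and 0 for Hdac2. Inside counts with wide peaks were 2 in Hd1_loxlox Hdac1, 5 in Hd2lox Hdac1, 3 in Bry Hdac1 and 4 in Bry Hdac2. Fewer peaks entered there by construction. Adding listed start sites to the gene ends, chosen after seeing the data, gave 7 recurrent members for Hdac1 and 5 for Hdac2. In that setting the members lay below all genes in 5 lists, narrowly in Hd1_loxlox Hdac1 (32.4% against 33.7%), and above in Hd2lox Hdac2 (17.6% against 14.8%). No share of all genes is given for the recurrent counts of these settings or for the inside counts with wide peaks. For single members, the number of lists with an end peak moved in 41 cases and stayed in 231, each case being 1 member in 1 setting. Rasip1 fell from 5 lists to 1 with 500 bp and to 0 for peak centres. With wide peaks Nos3 fell from 3 to 0 and Ramp2 from 3 to 1, while Plvap kept 3. These 3 genes have no listed start site and so had 0 at start sites alone, where Egfl7 rose from 1 to 5 and Ece1 from 0 to 5.

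Leaving out 1 line and requiring both others gave 1 to 3 recurrent Hdac1 members and 0 to 3 for Hdac2. The 0 arose without Bry or without Hd2lox, since the Hd1_loxlox Hdac2 list was then required. Hdac1 had 2 without Bry, 1 without Hd1_loxlox and 3 without Hd2lox. No share of all genes is given for counts with a line left out. Without the Hd1_loxlox Hdac2 list alone the Hdac2 number was 3. With lines paired (replicate block) the tests across genes called 0 genes, as without pairing, and for Rasip1 the sign-flip permutation p was 0.25. The smallest p these designs allow is above 0.05, so a count of 0 says nothing about stability. Read depth is unknown, so absence of a peak cannot be told from too few reads.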

Other observations

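Some members had peaks a little beyond the end windows. Cdh5 had Bry peaks below its lower end, at 104098749-104099914 on chromosome 8 for Hdac1 and 104098896-104100018 for Hdac2, 1699 and 1595 bp from the gene. In the other lines the nearest peaks to Cdh5 lay farther off. They were beyond its upper end, 25838 bp away, for Hdac1 in Hd1_loxlox, and 25713 bp for Hdac1 and 25704 bp for Hdac2 in Hd2lox, and below its lower end, 22521 bp away, for Hdac2 in Hd1_loxlox. Beyond the upper end of Nos3 the lists held Hdac1 peaks at 24387111-24388583 on chromosome 5 in Hd1_loxlox and 24387387-24388655 in Hd2lox, and an Hdac2 peak at 24387507-24388426 in Hd2lox. Below Egfl7 a peak lay at 26577972-26579090 on chromosome 2 for Hdac1 in Hd1_loxlox, 26578046-26579136 for Hdac1 in Bry and 26577857-26579087 for Hdac2 in Bry.

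Egfl7 also hosts the endothelial microRNA gene Mir126a (26591357-26591429). Its nearest peak was 3478 bp away for Hdac1 in Hd1_loxlox, 4022 bp in Hd2lox and 2020 bp in Bry. For Hdac2 the distances were 42847 bp in Hd1_loxlox, 4273 bp in Hd2lox and 3804 bp in Bry.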
